A study of Mus musculus with 15 samples.

Results

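The genes described here encode the proteins of the cornified envelope and its keratin matrix. They are the 15 small proline-rich (Sprr) genes, the 21 late cornified envelope (Lce) genes and 9 further genes, namely loricrin (Lor), involucrin (Ivl), filaggrin (Flg), filaggrin 2 (Flg2), hornerin (Hrnr), repetin (Rptn), cornulin (Crnn), Crct1 and Kprp. Members were taken by symbol, as protein-coding genes whose mouse symbol starts with Sprr or Lce plus the 9 named genes, which gave 45 of the 48795 genes in the count tables. All 45 lie on chromosome 3 of GRCm38, between 92080271 (the lower end of Lor) and 93399442 (the upper end of Rptn). Of the 45, 41 had enough reads to be tested, and Sprr2a1, Sprr2a2, Sprr2k and Sprr3 did not. The rule uses symbols and no measured value, but it was set with earlier results of these data known. PolyA RNA from the ears of female mice, 5 weeks old, was sequenced in 15 libraries from a model of ear inflammation induced with phorbol 12-myristate 13-acetate (PMA), a phorbol ester that activates protein kinase C. PMA_1002 ears (6 libraries) received PMA and innate defense regulator peptide 1002, the peptide of the series title, PMA_ethanol ears (4 libraries) received PMA and ethanol, and control ears (5 libraries) carry the treatment label control. The labels give no dose or time, and name neither the vehicle of control ears nor whether the peptide came in ethanol. They tie no library to an animal of its own, and the p-values therefore reflect variation between libraries, part of which may be technical.

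The cornified envelope is the insoluble protein shell that replaces the plasma membrane of a keratinocyte as it becomes a dead cell of the skin surface. Transglutaminases cross-link involucrin, loricrin, Sprr and Lce proteins into the shell, while filaggrin and its relatives bundle keratin filaments and are later broken down into moisture-holding compounds. Their genes sit side by side in the epidermal differentiation complex, and human SPRR and LCE3 genes are known for being raised in wounded and psoriatic epidermis, while loricrin and filaggrin mark undisturbed terminal differentiation.

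Reads in genes ran from 2656680 to 28585995 per library. Values are CPM, counts of a gene per TMM-scaled library size, and a gene is called higher or lower at a Benjamini-Hochberg adjusted p under 0.05 over all 14991 genes tested with edgeR's quasi-likelihood test, to which every adjusted p below belongs. Keratinocyte markers stood at 22430 to 25550 CPM in sum over 18 genes in PMA_1002 ears, at 16640 to 21070 CPM in PMA_ethanol ears and at 19430 to 22350 CPM in control ears. Their mean log2 CPM, which weighs each gene alike, ran from 9.46 to 9.62 in PMA_1002 ears, 9.29 to 9.55 in PMA_ethanol ears and 9.09 to 9.21 in control ears, so the sum and the mean put PMA_ethanol and control ears in opposite order. Of the 18, 9 were higher and 6 lower in PMA_1002 against PMA_ethanol ears, 8 higher and 6 lower in PMA_ethanol against control ears, and 10 higher and 1 lower in PMA_1002 against control ears. Neutrophil markers (13 of 14 measured) summed to 442 to 782 CPM in PMA_1002 ears, 1661 to 3482 CPM in PMA_ethanol ears and 102 to 125 CPM in control ears. All 13 were higher in PMA_ethanol than in control ears and lower in PMA_1002 than in PMA_ethanol ears. The part of either marker list in the results was not tested. In whole tissue, fewer cells of a type and less RNA per cell cannot be told apart. Reads that fit several places were kept out of the counts, which bears on these gene families. Over 10% of the 50-base windows in the transcripts of 23 of the 45 genes also occur in another gene's transcripts. The highest share, 96.5%, was in Sprr2a2. With 100-base windows this held for 7 genes, namely Sprr2a1, Sprr2a2, Sprr2a3, Lce3c, Lce3d, Lce3e and Lce3f. Levels of near-identical members are therefore uncertain.

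PMA with ethanol went with a split inside the complex. In PMA_ethanol against control ears, 18 of the 41 measured genes were higher, against 32.5% of all genes tested, and 4 were lower, against 35.9%, which makes 22 called either way, against 68.4%. All 8 measured Sprr2 genes, Sprr1a, Sprr1b and all 6 Lce3 genes rose, together with Ivl and Crct1, whereas Lor, Flg, Flg2 and Hrnr fell. None of the 15 Lce1 and Lce6a genes was called either way by edgeR, none had an unadjusted p under 0.05 and DESeq2 called none. In PMA_1002 against PMA_ethanol ears, 7 genes were higher, against 17% of all genes, so that their share was near that of all genes. A further 13 were lower, against 18%, with 35% of all genes called either way. Those that fell were the 8 Sprr2 genes, Sprr1a and 4 Lce3 genes, and those that rose were Lor, Flg2, Hrnr, Lce1a2, Lce1b, Lce1c and Lce1m. In PMA_1002 against control ears, 24 genes were higher, against 28.4% of all genes, and edgeR called 0 lower, against 26.7% (either way 55%), with 0 lower at an unadjusted p under 0.05 and 0 by DESeq2. The median log2 fold change of the 41 genes was 0.31 in PMA_1002 against PMA_ethanol ears, 0.48 in PMA_ethanol against control ears and 0.76 in PMA_1002 against control ears, beside medians over all genes of 0.03, -0.07 and -0.03. The comparisons share groups, so their values are given side by side and not as separate evidence. The count of genes higher in PMA_1002 than in PMA_ethanol ears depended on single libraries, with 14 without PMA_ethanol library 1 and 4 without PMA_ethanol library 2, and the count higher in PMA_1002 than in control ears was 15 without control library 2.

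**Figure D1:**
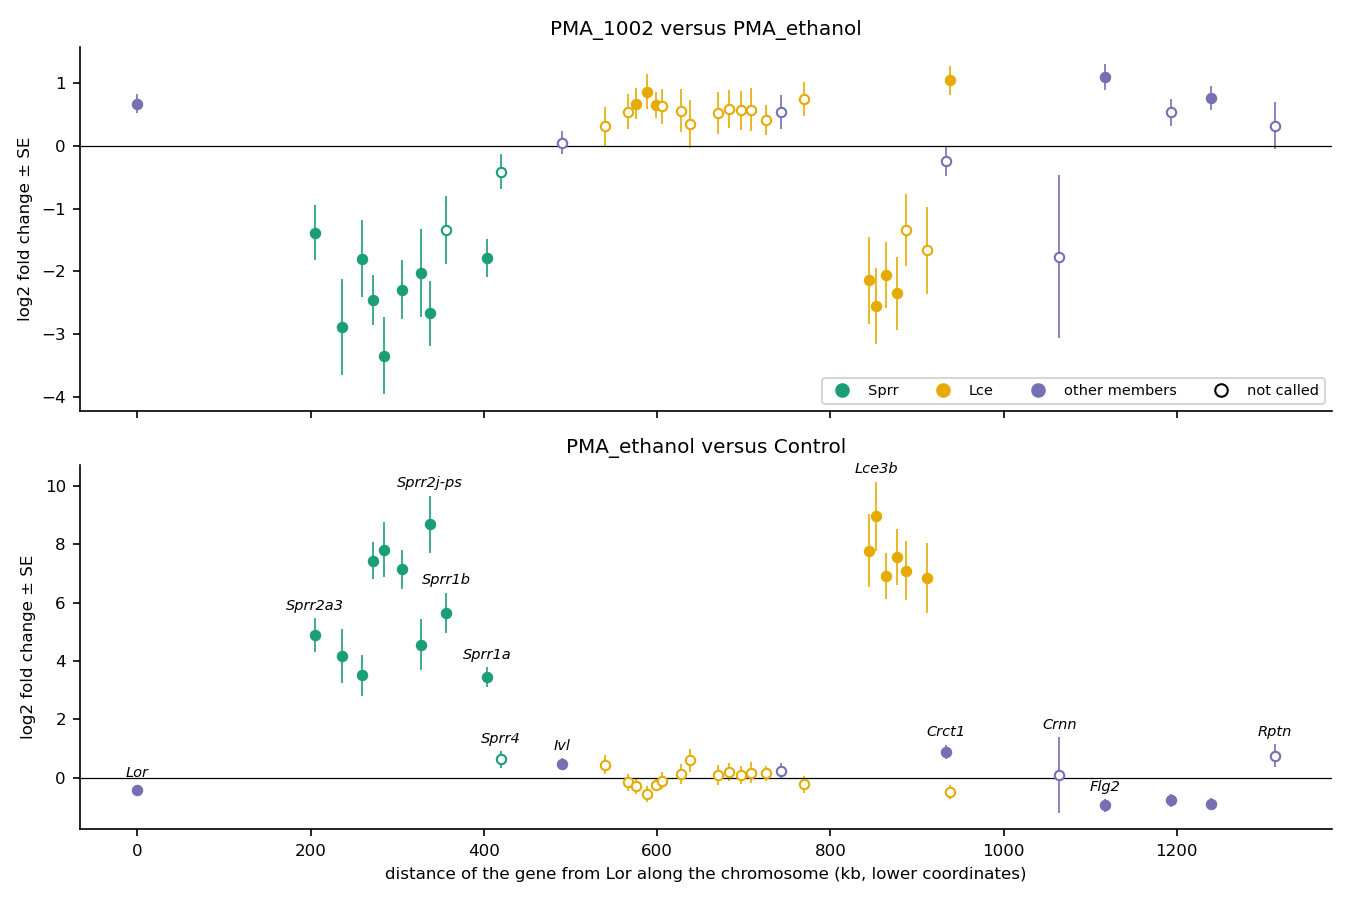
Log2 fold change (y axis, bars ± SE) of the 41 measured genes against their distance from Lor along the chromosome in kb (x axis), for PMA_1002 versus PMA_ethanol (top) and PMA_ethanol versus Control (bottom). Filled points were called at an adjusted p under 0.05; the Sprr1 and Sprr2 block and the Lce3 block lie above 0 in the lower panel and below 0 in the upper panel, while the Lce1 genes of the lower panel stay between -0.57 and 0.60.

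The blocks of genes that moved together are separate stretches of the complex. Among measured genes, the Sprr block ran from Sprr2a3 (chr3:92285417-92291405) to Sprr1a (chr3:92483952-92485895), and the Lce3 block from Lce3a (chr3:92925287-92926230) to Lce3f (chr3:92992226-92993426). Between them lay Sprr4, which was not called in any comparison, Ivl, Lce6a, Kprp and every Lce1 gene but Lce1m, and none of the Lce1 genes there was called in PMA_ethanol against control ears. Crct1 and Lce1m followed Lce3f, and the filaggrin relatives with Crnn and Rptn formed the far end.

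Proximal promoters are shown, mainly for members that were called, because TPA-responsive elements bound by AP-1 (Fos and Jun) factors are the classical sequence through which phorbol esters act. RefSeq (GRCm38.p6) promoters of 300 bases, 250 before and 50 after the gene start, were found for 41 of the 45 members, with Sprr2j-ps, Lce1f, Kprp and Crct1 not among them. The AP-1 letters TGANTCA (the same on both strands) occurred in 15 of the 41 (36.6%) and in 7.81% of the 32851 promoters in the table. They occurred in both Sprr1 promoters, in 7 of 10 Sprr2 promoters and in those of Lor, Ivl, Crnn, Flg2, Flg and Rptn, and in 0 of 6 Lce3 and 0 of 14 Lce1 and Lce6a promoters. N stands for any base, and the letters differed between genes. Sprr1b, Flg2, Flg and Crnn held TGAATCA, and Rptn held TGATTCA. Sprr1a, Lor and the Sprr2 genes with a match held TGAGTCA, and Ivl held TGACTCA. In PMA_ethanol against control ears, genes that rose (Sprr1b, Sprr2h), fell (Lor, Flg2, Flg) or were not called (Rptn, Crnn) all held TGANTCA. Of the genes that fell there, only Lor held TGAGTCA. The Lce3 genes rose without TGANTCA in this window. A match describes letters only and is no shown site. The windows below run from 10 bases before the first match to 10 after it, 5′ to 3′ on the gene's strand, with AP-1 matches in capitals. Sprr2k, which had too few reads to be tested, is included to complete the Sprr2 genes with a match. The capitals that end its window are the cut start of a further match, TGACTCA, at -182. Among Sprr2 genes the first match began between -198 (Sprr2h) and -193 (Sprr2d, Sprr2e, Sprr2i) bases from the start.
Sprr2b, plus strand, chr3:92316500-92316526: aaaggactctTGAGTCAcaagactcaa
Sprr2d, plus strand, chr3:92338937-92338963: gagtgctcacTGAGTCAcaggtctcaa
Sprr2e, plus strand, chr3:92351940-92351966: gagtgctcacTGAGTCAcaggtctcaa
Sprr2f, plus strand, chr3:92364980-92365006: aactgaatatTGAGTCAcagtgctcaa
Sprr2h, plus strand, chr3:92385477-92385503: ggatggtctcTGAGTCActgcacttta
Sprr2i, plus strand, chr3:92407788-92407814: aagggctcacTGAGTCAcaggactgaa
Sprr2k, plus strand, chr3:92432376-92432402: gaatgtcctcTGAGTCActgtactTGA
Sprr1b, minus strand, chr3:92438874-92438900: gcacctaggaTGAATCAtgtctgacag
Sprr1a, minus strand, chr3:92486011-92486037: taactaaagcTGAGTCAgagggtgaac
Lor, minus strand, chr3:92083174-92083200: gatcaatagaTGAGTCAgagcaggaca
Ivl, minus strand, chr3:92573835-92573861: agttatcagaTGACTCAgaaaggaagg
Flg2, plus strand, chr3:93197194-93197220: tgattagaaaTGAATCAgcccatccca
Flg, plus strand, chr3:93273433-93273459: tggttaagaaTGAATCAgaccatccca

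Sprr2d and Sprr2e shared every base of this window, and 88% of the 300 bases of their promoters without gaps. Flg2 and Flg carried the same match, TGAATCA, as did Sprr1b, while the first match of the other Sprr genes shown was TGAGTCA. Matches began at -111 in Sprr1b, at -146 and -116 in Sprr1a, at -48 in Lor, at -69 in Flg2 and at -103 in Flg. Other letters were searched on both strands in the same promoters. The TATA letters TATAAA were in 48.8% of members and 13.6% of all promoters, those of the antioxidant response element (TGACNNNGC) in 19.5% and 12.4%, those for STAT factors (TTCNNNGAA) in 7.32% and 8.3%, those for C/EBP factors (TTGCNNAAG) in 2.44% and 3.65%, and those for ETS factors (ACCGGAAG) in 0% and 2.3%. Whole promoters are given for Sprr2h, the Sprr2 gene of highest mean CPM in both PMA groups, for Lce3c, the Lce3 gene of highest mean CPM over all libraries, which holds no AP-1 match, and for Flg2, which fell with PMA.
Sprr2h, plus strand, chr3:92385435-92385734: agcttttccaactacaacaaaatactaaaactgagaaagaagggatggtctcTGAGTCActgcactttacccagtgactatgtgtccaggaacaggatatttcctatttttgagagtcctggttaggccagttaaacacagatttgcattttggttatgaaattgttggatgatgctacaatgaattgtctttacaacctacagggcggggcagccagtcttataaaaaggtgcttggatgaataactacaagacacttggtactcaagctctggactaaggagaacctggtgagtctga
Lce3c, plus strand, chr3:92944236-92944535: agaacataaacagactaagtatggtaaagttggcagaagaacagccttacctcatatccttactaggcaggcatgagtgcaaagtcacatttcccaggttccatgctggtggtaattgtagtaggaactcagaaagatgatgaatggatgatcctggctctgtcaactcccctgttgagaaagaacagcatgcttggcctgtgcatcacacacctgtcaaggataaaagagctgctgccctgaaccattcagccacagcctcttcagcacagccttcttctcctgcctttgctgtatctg
Flg2, plus strand, chr3:93197023-93197322: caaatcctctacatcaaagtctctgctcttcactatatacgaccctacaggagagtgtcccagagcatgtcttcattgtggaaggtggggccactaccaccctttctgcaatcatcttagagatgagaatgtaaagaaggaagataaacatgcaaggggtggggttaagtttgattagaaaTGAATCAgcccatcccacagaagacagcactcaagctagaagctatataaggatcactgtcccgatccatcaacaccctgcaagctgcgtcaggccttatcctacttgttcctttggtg

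The Sprr1 genes encode cross-bridging proteins that join other envelope proteins through transglutaminase bonds. Sprr1a and Sprr1b had the highest mean CPM of the Sprr genes in both PMA groups, and in control ears Sprr2d lay between them. Sprr1a stood at 247 to 635 CPM (median 431) in PMA_1002 ears, at 2200, 1490, 1630 and 949 CPM in PMA_ethanol libraries 1 to 4 and at 113, 96.5, 222, 109 and 176 CPM in control libraries 1 to 5. The 3 groups did not overlap: every PMA_1002 library lay below every PMA_ethanol library and above every control library. Sprr1a was lower in PMA_1002 than in PMA_ethanol ears (log2 fold change -1.78, SE 0.30, edgeR adjusted p = 0.000483) and higher in PMA_ethanol than in control ears (log2 fold change 3.45, SE 0.34, edgeR adjusted p = 6.72e-07). In PMA_1002 ears it remained higher than in control ears (log2 fold change 1.66, SE 0.30, edgeR adjusted p = 0.000394). Sprr1b stood at 69.3 to 482 CPM (median 296) in PMA_1002 ears, 1300, 451, 869 and 293 CPM in PMA_ethanol ears and 15.3, 17.6, 7.38, 23.6 and 9.51 CPM in control ears. Both PMA groups lay above all control libraries but overlapped each other. Sprr1b was higher in PMA_ethanol than in control ears (log2 fold change 5.66, SE 0.69, edgeR adjusted p = 9.21e-06) and in PMA_1002 than in control ears (log2 fold change 4.31, SE 0.64, edgeR adjusted p = 9.85e-05). Its difference between PMA_1002 and PMA_ethanol ears was not called (log2 fold change -1.34, SE 0.54, edgeR adjusted p = 0.0727), although DESeq2 called it. Sprr4, a related gene outside both subfamilies, ran at 7.29 to 21.9 CPM (median 11.8) in PMA_1002 ears, 22, 20, 16.2 and 9.87 CPM in PMA_ethanol ears and 9.19, 8.1, 14.4, 9.4 and 14.1 CPM in control ears, with overlapping groups and no edgeR call. DESeq2 called Sprr4 higher in PMA_ethanol than in control ears.

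The makeup of the Sprr transcripts changed with PMA as well. Sprr1a gave 47 ± 9.22% of the reads in Sprr genes in PMA_1002 ears, 47.2 ± 9.31% in PMA_ethanol ears and 67.6 ± 12.7% in control ears. Sprr1b gave 25.5 ± 6.22% in PMA_1002 ears, 19.5 ± 3.74% in PMA_ethanol ears and 7.59 ± 3.93% in control ears. Sprr2h gave 8.7 ± 1.93% in PMA_1002 ears, 12.7 ± 1.67% in PMA_ethanol ears and 1.77 ± 0.923% in control ears (SD, n = 6, 4 and 5). Every library of either PMA group lay above every control library in the share of Sprr1b and in that of Sprr2h. The share of Sprr1a overlapped, at 37.9% to 60.2% in PMA_1002, 38.2% to 58.4% in PMA_ethanol and 54.5% to 83.8% in control libraries.

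**Figure D2:**
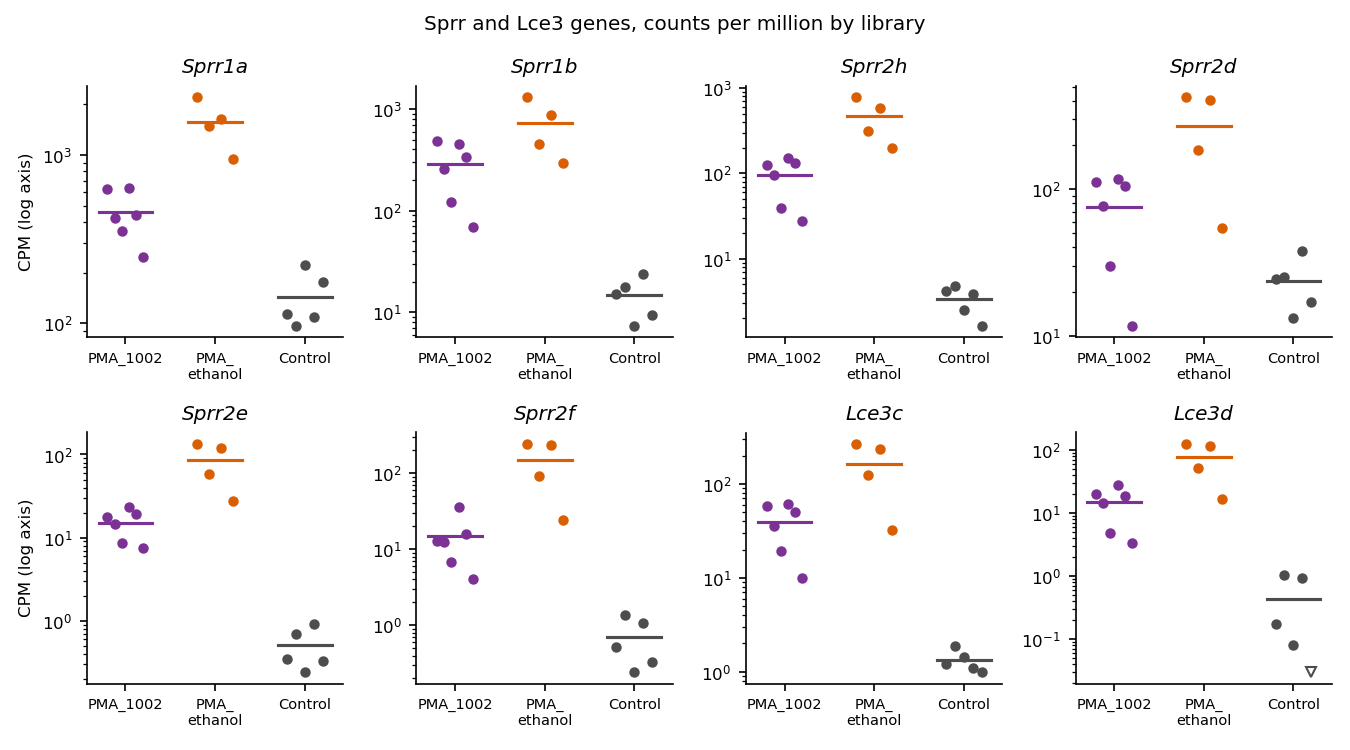
CPM of 6 Sprr and 2 Lce3 genes (y axis, logarithmic) in each library of PMA_1002, PMA_ethanol and Control (x axis), with horizontal bars at group means; the open triangle marks a library with 0 reads of Lce3d. Control libraries lie lowest for all 8 genes apart from Sprr2d, where PMA_1002 library 6 (11.7 CPM) lies below them.

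Sprr2 genes encode further cross-bridging proteins of epithelia. The median log2 fold change over the 8 measured genes was -2.37 in PMA_1002 against PMA_ethanol ears, 6.02 in PMA_ethanol against control ears and 3.99 in PMA_1002 against control ears. Summed over the family, Sprr2 transcripts came to 278 ± 137 CPM in PMA_1002 ears, 1233 ± 697 CPM in PMA_ethanol ears and 38.0 ± 14.6 CPM in control ears (SD). Sprr2h stood at 27.4 to 151 CPM (median 109.7) in PMA_1002 ears, 777, 314, 580 and 197 CPM in PMA_ethanol ears and 4.16, 4.82, 2.49, 3.85 and 1.64 CPM in control ears. The groups did not overlap. Sprr2h was lower in PMA_1002 than in PMA_ethanol ears (log2 fold change -2.29, SE 0.47, edgeR adjusted p = 0.00234) and higher in PMA_ethanol than in control ears (log2 fold change 7.14, SE 0.67, edgeR adjusted p = 7.44e-07). Sprr2e kept the same order at lower levels, with 7.46 to 23.5 CPM (median 16.2) in PMA_1002 ears, 134, 57.5, 121 and 27.6 CPM in PMA_ethanol ears and 0.347, 0.689, 0.241, 0.925 and 0.328 CPM in control ears. Its groups did not overlap either. Sprr2e was lower in PMA_1002 than in PMA_ethanol ears (log2 fold change -2.46, SE 0.40, edgeR adjusted p = 0.000386) and higher in PMA_ethanol than in control ears (log2 fold change 7.44, SE 0.64, edgeR adjusted p = 2.08e-07).

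Sprr2f had the largest drop with the peptide. It stood at 4.07 to 36.3 CPM (median 12.7) in PMA_1002 ears, 243, 93.2, 237 and 24.2 CPM in PMA_ethanol ears and 0.52, 1.38, 0.241, 1.08 and 0.328 CPM in control ears. The highest PMA_1002 library lay above the lowest PMA_ethanol library, and both groups lay above all control libraries. Sprr2f was lower in PMA_1002 than in PMA_ethanol ears (log2 fold change -3.34, SE 0.61, edgeR adjusted p = 0.0011) and higher in PMA_ethanol than in control ears (log2 fold change 7.82, SE 0.94, edgeR adjusted p = 8.1e-06). Sprr2d, the Sprr2 gene of second highest mean CPM in both PMA groups and of highest mean CPM in control ears, stood at 11.7 to 118 CPM (median 91) in PMA_1002 ears, 422, 186, 407 and 54.5 CPM in PMA_ethanol ears and 24.5, 25.3, 13.3, 37.8 and 16.9 CPM in control ears. PMA_1002 libraries overlapped both other groups. Sprr2d was lower in PMA_1002 than in PMA_ethanol ears (log2 fold change -1.79, SE 0.62, edgeR adjusted p = 0.0388), a call lost under 8 of 17 alternatives. It was higher in PMA_1002 than in control ears (log2 fold change 1.72, SE 0.65, edgeR adjusted p = 0.0385), a call lost under 11 of 18.

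At low levels, Sprr2b stood at 0.339 to 3.91 CPM (median 1.31) in PMA_1002 ears, 17.8, 8.72, 25.7 and 0.286 CPM in PMA_ethanol ears and 0.173, 0.172, 0.321, 1.54 and 1.31 CPM in control ears. PMA_ethanol library 4 fell inside the control range, and the other PMA_ethanol libraries lay above all libraries of both other groups. Sprr2b was lower in PMA_1002 than in PMA_ethanol ears (log2 fold change -2.89, SE 0.77, edgeR adjusted p = 0.01) and was not called in PMA_1002 against control ears (log2 fold change 1.29, SE 0.96, edgeR adjusted p = 0.275). Sprr2j-ps is annotated as protein-coding in GENCODE M21 and as a transcribed pseudogene in RefSeq. It stood at 0.678 to 4.09 CPM (median 2.54) in PMA_1002 ears, 21.2, 14.2, 31.5 and 2.86 CPM in PMA_ethanol ears and 0, 0.172, 0, 0 and 0 CPM in control ears. With 1 read over the control libraries its count ratio to control ears was 113 (95% interval 20 to 4470) in PMA_1002 ears and 543 (97.1 to 21500) in PMA_ethanol ears, intervals that cover counting error only. The other members, Sprr2a3 and Sprr2i, had log2 fold changes of -1.38 and -2.02 in PMA_1002 against PMA_ethanol ears and of 4.89 and 4.57 in PMA_ethanol against control ears, all called. Their calls between PMA_1002 and PMA_ethanol ears were lost under 6 (Sprr2a3) and 9 (Sprr2i) of 17 alternatives. The unmeasured Sprr2a1 and Sprr2a2 share 96.3% and 96.5% of their windows with other genes, mostly with each other, so their few reads say little of their level.

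Lce3 genes, whose human counterparts are raised in disturbed epidermis and lie in a region tied to psoriasis risk, were close to 0 in control ears and higher in both PMA groups. Over the 6 genes the sum was 69.1 ± 40.3 CPM in PMA_1002 ears, 304 ± 206 CPM in PMA_ethanol ears and 2.07 ± 0.884 CPM in control ears (SD). All 6 were higher in PMA_ethanol and in PMA_1002 than in control ears, with median log2 fold changes of 7.33 and 5.43. Lce3c, chosen for its highest level in the subfamily after values were seen, stood at 9.83 to 60.4 CPM (median 43) in PMA_1002 ears, 267, 124, 235 and 32.3 CPM in PMA_ethanol ears and 1.21, 1.89, 1.44, 1.08 and 0.984 CPM in control ears. Both PMA groups lay above control ears, and PMA_ethanol library 4 lay inside the PMA_1002 range. Lce3c was lower in PMA_1002 than in PMA_ethanol ears (log2 fold change -2.05, SE 0.53, edgeR adjusted p = 0.00908). Lce3d stood at 3.39 to 27.4 CPM (median 16.4) in PMA_1002 ears, 125, 51.5, 116 and 17 CPM in PMA_ethanol ears and 0.173, 1.03, 0.0802, 0.925 and 0 CPM in control ears. The order of groups was that of Lce3c, again with PMA_ethanol library 4 inside the PMA_1002 range. Lce3d was lower in PMA_1002 than in PMA_ethanol ears (log2 fold change -2.35, SE 0.58, edgeR adjusted p = 0.00755) and higher in PMA_ethanol than in control ears (log2 fold change 7.56, SE 0.95, edgeR adjusted p = 1.2e-05).

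The remaining Lce3 genes were almost silent in control ears. Lce3b had 1 read in the control libraries together and stood at 0.847 to 7.62 CPM (median 3.05) in PMA_1002 ears, 21.6, 10.8, 50.2 and 3.72 CPM in PMA_ethanol ears and 0, 0.172, 0, 0 and 0 CPM in control ears. PMA_ethanol library 3 was the highest of all. Its count ratio to control ears was 139 (95% interval 24.7 to 5510) in PMA_1002 ears and 523 (93.4 to 20700) in PMA_ethanol ears. Lce3a, with 2 control reads, stood at 0.339 to 7.21 CPM (median 3.61) in PMA_1002 ears, 23, 9.77, 27.8 and 1.86 CPM in PMA_ethanol ears and 0, 0.344, 0, 0 and 0 CPM in control ears, with count ratios to control ears of 70 (19.2 to 582) in PMA_1002 ears and 227 (62.6 to 1880) in PMA_ethanol ears. Lce3e, with 3 control reads, stood at 0.847 to 8.76 CPM (median 4.89) in PMA_1002 ears, 23.8, 6.26, 22 and 2.72 CPM in PMA_ethanol ears and 0.173, 0, 0, 0.154 and 0.164 CPM in control ears, with ratios of 68.1 (23.1 to 332) in PMA_1002 ears and 128 (43.4 to 621) in PMA_ethanol ears. In all 3 genes PMA_ethanol library 4 lay inside the PMA_1002 range. Between PMA_1002 and PMA_ethanol ears, Lce3b (log2 fold change -2.55, SE 0.61, edgeR adjusted p = 0.00511) and Lce3a (log2 fold change -2.14, SE 0.69, edgeR adjusted p = 0.0281) were lower, and the call of Lce3a was lost under 7 of 17 alternatives. Lce3e (log2 fold change -1.33, SE 0.57, edgeR adjusted p = 0.0877) and Lce3f (log2 fold change -1.66, SE 0.69, edgeR adjusted p = 0.0775) were not called, and both were called without PMA_ethanol library 4.

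Lce1 genes encode proteins of the late envelope of undisturbed skin, and they behaved differently from Lce3 genes of the same family. Summed with Lce6a they came to 2236 ± 438 CPM in PMA_1002 ears, 1437 ± 570 CPM in PMA_ethanol ears and 1534 ± 379 CPM in control ears (SD). In PMA_ethanol against control ears their log2 fold changes lay between -0.57 (Lce1a2) and 0.60 (Lce1f), with a median of 0.09 that became -0.16 with upper-quartile scaling, under which 3 of the 15 were called lower. Single libraries turned it as well: it was 0.30 with 2 called higher without PMA_ethanol library 4 and -0.27 with 1 called lower without PMA_ethanol library 1. It was also below 0 without control library 2 (-0.03) or PMA_ethanol library 3 (-0.06), with 1 called lower in each case. Lce1m stood at 252 to 486 CPM (median 379) in PMA_1002 ears, 210, 128, 227 and 151 CPM in PMA_ethanol ears and 347, 159, 253, 210 and 284 CPM in control ears. PMA_1002 libraries lay above all PMA_ethanol libraries and overlapped control ears. Lce1m was higher in PMA_1002 than in PMA_ethanol ears (log2 fold change 1.05, SE 0.23, edgeR adjusted p = 0.00245), and its difference in PMA_ethanol against control ears was not called (log2 fold change -0.49, SE 0.23, edgeR adjusted p = 0.0707).

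Lce1a1 stood at 235 to 424 CPM (median 289) in PMA_1002 ears, 307, 185, 265 and 111 CPM in PMA_ethanol ears and 324, 152, 248, 206 and 279 CPM in control ears. Its groups overlapped and no comparison called it. Lce1d stood at 149 to 254 CPM (median 179) in PMA_1002 ears, 177, 101, 162 and 63.2 CPM in PMA_ethanol ears and 179, 88, 131, 109 and 162 CPM in control ears, again with overlap and no call. Lce1b stood at 136 to 217 CPM (median 171) in PMA_1002 ears, 152, 89.6, 136 and 63.8 CPM in PMA_ethanol ears and 177, 84.9, 127, 116 and 169 CPM in control ears. Its groups overlapped too, and its call in PMA_1002 against PMA_ethanol ears (log2 fold change 0.67, SE 0.25, edgeR adjusted p = 0.0497) was lost under 12 of 17 alternatives. Lce1c (0.66) and Lce1a2 (0.87) were the other Lce1 genes called higher in that comparison besides Lce1m, and their calls were lost under 3 (Lce1c) and 6 (Lce1a2) of 17 alternatives. The rest of the 15 had log2 fold changes from 0.31 (Lce6a) to 0.75 (Lce1l) without a call. In PMA_1002 against control ears Lce6a, Lce1f, Lce1h, Lce1k and Lce1m were called higher, at log2 fold changes from 0.55 (Lce1m) to 0.95 (Lce1f), and the number called depended on the setting. It was 0 with upper-quartile scaling, with no filter on low counts, or without control library 2, 3 or 4 or PMA_1002 library 1 or 5. It was 8 without PMA_1002 library 6, 10 with DESeq2, 12 with the compared groups alone and 14 with the replicate block.

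**Figure D3:**
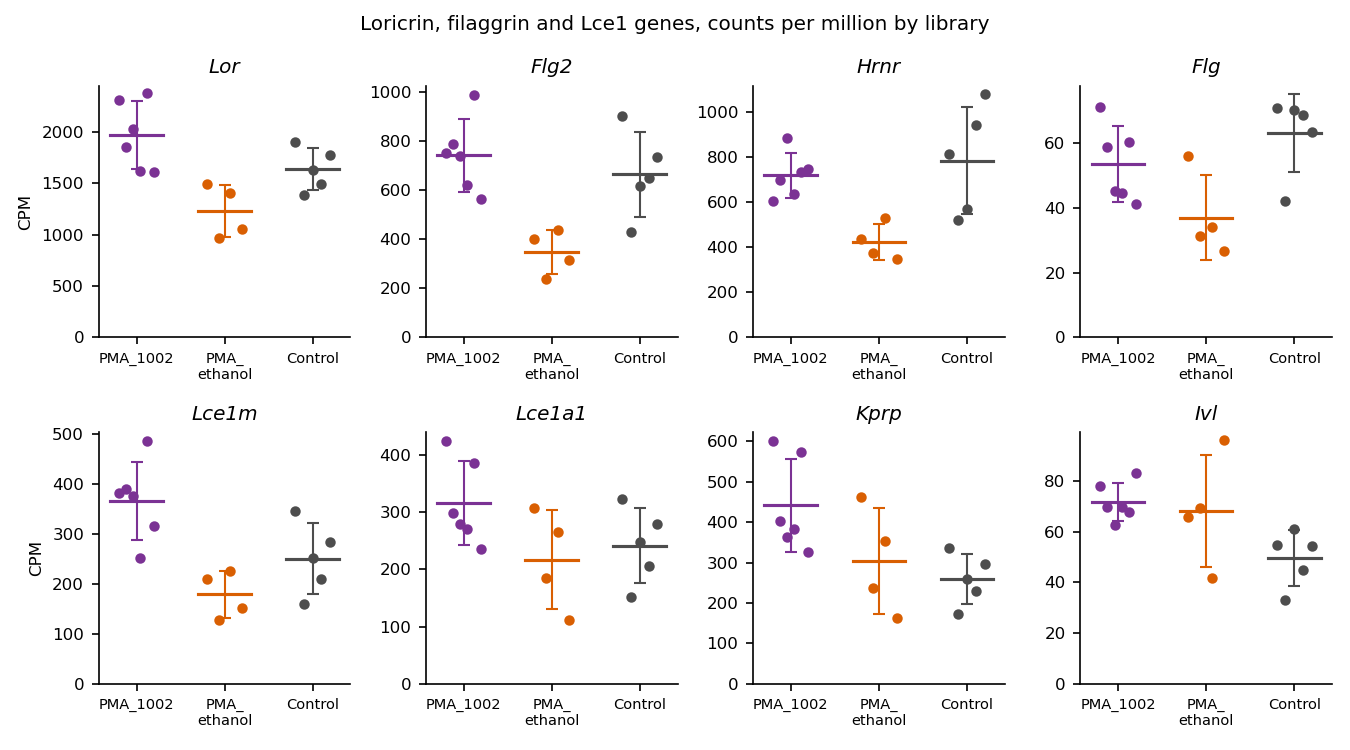
CPM (y axis, linear from 0) of Lor, Flg2, Hrnr, Flg, Lce1m, Lce1a1, Kprp and Ivl in each library of PMA_1002, PMA_ethanol and Control (x axis), with bars at group means ± SD. PMA_1002 libraries lie above all PMA_ethanol libraries for Lor, Flg2, Hrnr and Lce1m, and overlap them for the other 4 genes.

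Loricrin is the main protein of the mouse envelope by mass, and Lor had the most reads of the members in PMA_1002 and in control ears, while Sprr1a had more in PMA_ethanol ears. It stood at 1607 to 2377 CPM (median 1949) in PMA_1002 ears, 1490, 964, 1410 and 1060 CPM in PMA_ethanol ears and 1900, 1390, 1630, 1490 and 1780 CPM in control ears. Every PMA_1002 library lay above every PMA_ethanol library, and control ears overlapped both. Lor was higher in PMA_1002 than in PMA_ethanol ears (log2 fold change 0.68, SE 0.15, edgeR adjusted p = 0.00172) and lower in PMA_ethanol than in control ears (log2 fold change -0.42, SE 0.15, edgeR adjusted p = 0.0208), a call lost without control library 1, PMA_ethanol library 2 or PMA_ethanol library 4. PMA_1002 and control ears were not called apart (log2 fold change 0.26, SE 0.14, edgeR adjusted p = 0.109). Involucrin is an early scaffold of the envelope. Ivl stood at 62.7 to 83.2 CPM (median 69.7) in PMA_1002 ears, 65.9, 69.2, 41.9 and 96 CPM in PMA_ethanol ears and 54.8, 33.1, 61.1, 44.7 and 54.4 CPM in control ears. All PMA_1002 libraries lay above all control libraries, and PMA_ethanol ears spanned both. Ivl was higher in PMA_1002 than in control ears (log2 fold change 0.53, SE 0.17, edgeR adjusted p = 0.0167) and in PMA_ethanol than in control ears (log2 fold change 0.48, SE 0.19, edgeR adjusted p = 0.0361), the second call being lost under 9 of 16 alternatives.

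Filaggrin, filaggrin 2 and hornerin are S100-fused proteins of long tandem repeats that bundle keratin in the cornified cell. Flg2 stood at 564 to 987 CPM (median 745) in PMA_1002 ears, 399, 236, 436 and 314 CPM in PMA_ethanol ears and 902, 427, 615, 650 and 733 CPM in control ears. PMA_1002 libraries all lay above PMA_ethanol libraries, and control library 2 fell inside the PMA_ethanol range. Flg2 was higher in PMA_1002 than in PMA_ethanol ears (log2 fold change 1.10, SE 0.21, edgeR adjusted p = 0.000887) and lower in PMA_ethanol than in control ears (log2 fold change -0.95, SE 0.22, edgeR adjusted p = 0.00115). Hrnr stood at 606 to 886 CPM (median 718) in PMA_1002 ears, 438, 374, 532 and 349 CPM in PMA_ethanol ears and 814, 519, 572, 945 and 1080 CPM in control ears. Its PMA_1002 libraries also lay above all PMA_ethanol libraries. Hrnr was higher in PMA_1002 than in PMA_ethanol ears (log2 fold change 0.77, SE 0.19, edgeR adjusted p = 0.00539) and lower in PMA_ethanol than in control ears (log2 fold change -0.89, SE 0.20, edgeR adjusted p = 0.000786). Flg stood at 41.2 to 71.3 CPM (median 51.9) in PMA_1002 ears, 56, 31.2, 34 and 26.7 CPM in PMA_ethanol ears and 70.8, 42.2, 70.4, 68.7 and 63.5 CPM in control ears. Its groups overlapped. Flg was lower in PMA_ethanol than in control ears (log2 fold change -0.77, SE 0.22, edgeR adjusted p = 0.0065), and its difference between PMA_1002 and PMA_ethanol ears was not called (log2 fold change 0.54, SE 0.21, edgeR adjusted p = 0.0652). That difference was called under 4 of 17 alternatives: upper-quartile scaling, the replicate block, the hair follicle level as a covariate, and without PMA_ethanol library 1. None of Flg, Flg2 and Hrnr was called in PMA_1002 against control ears, with log2 fold changes of -0.23 (SE 0.20), 0.16 (SE 0.19) and -0.13 (SE 0.17), and the sign of Flg2 turned with upper-quartile scaling (-0.00168). Their repeats bear on these counts, since 79.2%, 65.3% and 69.1% of the 50-base windows of the longest transcript of Flg, Flg2 and Hrnr occur more than once in that transcript.

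The last of the 9 named genes did not move as a group. Kprp, a keratinocyte proline-rich protein, stood at 326 to 600.3 CPM (median 393) in PMA_1002 ears, 463, 237, 353 and 162 CPM in PMA_ethanol ears and 336, 173, 260, 229 and 296 CPM in control ears, with overlapping groups. It was higher in PMA_1002 than in control ears (log2 fold change 0.77, SE 0.26, edgeR adjusted p = 0.0216) and not called in the other comparisons. Crct1, a small cysteine-rich protein, stood at 191 to 353 CPM (median 220.3) in PMA_1002 ears, 421, 226, 327 and 173 CPM in PMA_ethanol ears and 175, 113, 169, 128 and 193 CPM in control ears. PMA_1002 and PMA_ethanol ears overlapped widely, and single libraries of each reached the control range. Crct1 was higher in PMA_ethanol than in control ears (log2 fold change 0.88, SE 0.25, edgeR adjusted p = 0.00632) and in PMA_1002 than in control ears (log2 fold change 0.64, SE 0.23, edgeR adjusted p = 0.0296), and the second call was lost under 6 of 18 alternatives. Rptn, an S100-fused envelope protein, stood at 26.8 to 93.1 CPM (median 43.1) in PMA_1002 ears, 70.4, 32.2, 28.6 and 25 CPM in PMA_ethanol ears and 22.7, 15.2, 29.4, 18.5 and 30.8 CPM in control ears. PMA_1002 libraries ran higher than control libraries with some overlap. Rptn was higher in PMA_1002 than in control ears (log2 fold change 1.08, SE 0.36, edgeR adjusted p = 0.0198) and not called in PMA_ethanol against control ears (log2 fold change 0.75, SE 0.39, edgeR adjusted p = 0.101).

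Crnn, another S100-fused gene, varied more within groups than between them. It stood at 0.508 to 22.1 CPM (median 0.858) in PMA_1002 ears, 17.3, 55.6, 0.83 and 4.15 CPM in PMA_ethanol ears and 0.173, 3.79, 59.3, 4.16 and 28.7 CPM in control ears. High and low libraries occurred in all 3 groups, and no comparison called Crnn. The 6 libraries with most Crnn (control 3 and 5, PMA_ethanol 1 and 2, PMA_1002 1 and 4) were the same 6 that had the highest level of hair follicle markers, a mean of 4.15 to 6.67 log2 CPM over 26 measured genes against -0.80 to 2.98 in the other 9. Summed hair follicle markers ran from 30.2 to 1553 CPM in PMA_1002 ears, 31.1 to 4797 CPM in PMA_ethanol ears and 109 to 4704 CPM in control ears, and with that level as a covariate the log2 fold change of Crnn in PMA_1002 against PMA_ethanol ears was 0.34 in place of -1.76. With the same covariate, 6 members were called higher and 12 lower in PMA_1002 against PMA_ethanol ears.

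A ratio taken within each library does not depend on scaling. Reads of the Sprr and Lce3 genes per 100 reads of Lor, Flg, Flg2 and Hrnr, a ratio chosen after values were seen, came to 41.9, 31, 17.7, 56.7, 30 and 14.3 in PMA_1002 libraries 1 to 6. They came to 245, 195, 196 and 96.3 in PMA_ethanol libraries 1 to 4 and to 4.78, 7.21, 9.21, 6.41 and 6.25 in control libraries 1 to 5. The 3 groups were fully apart, with means of 31.9 ± 15.7 in PMA_1002 ears, 183 ± 62.4 in PMA_ethanol ears and 6.77 ± 1.62 in control ears (SD, n = 6, 4 and 5). Lor, Flg, Flg2 and Hrnr are the members called lower in PMA_ethanol than in control ears. All Lce3 genes and most measured Sprr genes were called higher there. The choice of genes thus largely set the separation of the groups, and the ratio is no separate evidence.

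**Figure D4:**
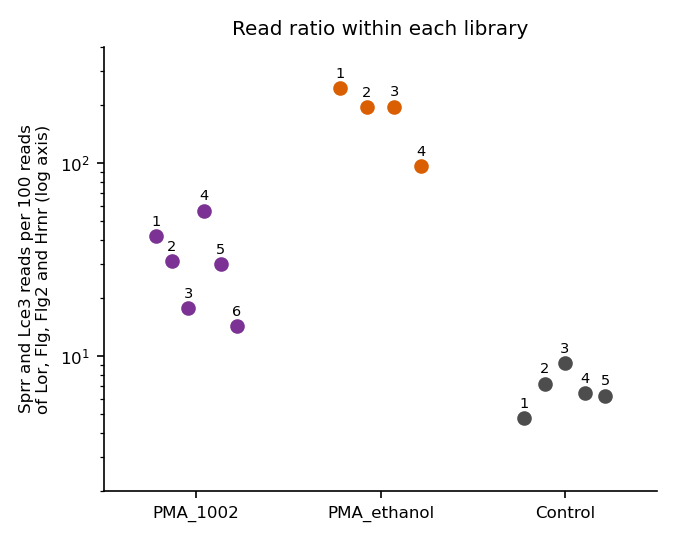
Reads of Sprr and Lce3 genes per 100 reads of Lor, Flg, Flg2 and Hrnr (y axis, logarithmic) in each library, numbered within PMA_1002, PMA_ethanol and Control (x axis). PMA_1002 libraries sit between 14.3 and 56.7, below the PMA_ethanol libraries (96.3 to 245) and above the Control libraries (4.78 to 9.21).

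Counted without overlap between groups, 4 members lay fully higher and 3 fully lower in PMA_1002 than in PMA_ethanol ears, against 11% and 13% of all genes tested. The share of members was near that of all genes for fully higher and below it for fully lower. In PMA_ethanol against control ears 15 lay fully higher and 0 fully lower, against 28.2% and 29.6%. In PMA_1002 against control ears the counts were 12 and 0, against 20.2% and 16.5%.

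Within a group, genes of a subfamily often differed together between libraries. PMA_ethanol library 4 held the lowest value of its group in 13 of the 14 measured Sprr2 and Lce3 genes, and PMA_1002 library 6 did so in 13 of 14. PMA_ethanol library 4 had 375 CPM of summed Sprr2 transcripts, against 959 to 1847 CPM in the other 3, while its neutrophil markers summed to 3171 CPM and lay within the range of the group. PMA_1002 library 6 had 86.3 CPM of summed Sprr2 transcripts against 136 to 436 CPM in the other 5, with the highest neutrophil sum of its group, 782 CPM. The Lce1 and Lce6a genes were also lowest in PMA_ethanol library 4 (13 of 15 genes) and PMA_1002 library 6 (11 of 15), and in control library 2 (13 of 15). Those libraries also had the highest sum of 12 skeletal muscle markers in their groups. That sum was 4827 CPM in PMA_ethanol library 4, 3778 CPM in PMA_1002 library 6 and 5009 CPM in control library 2. Control library 2, however, held the highest value of its group in 9 of the 14 Sprr2 and Lce3 genes. Its keratinocyte markers summed to 22350 CPM, the highest of its group. That keratinocyte sum was 18750 CPM in PMA_ethanol library 4, inside the range of its group, and 22430 CPM in PMA_1002 library 6, the lowest of its group. A link was not tested.

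**Figure D5:**
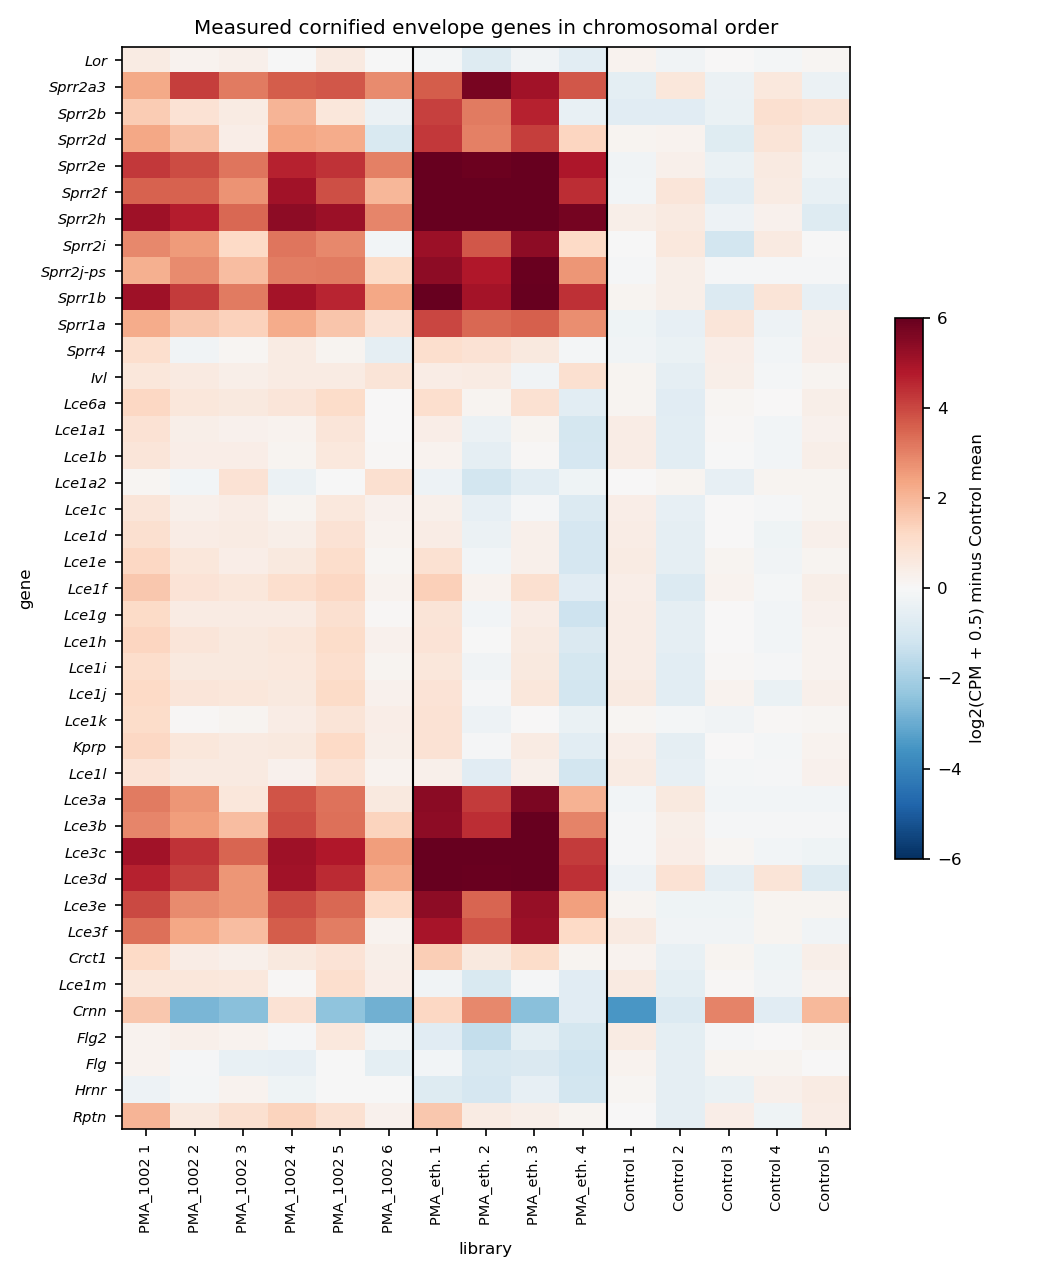
Difference of log2(CPM + 0.5) from the Control mean (colour, clipped at 6 in either direction) for the 41 measured genes in chromosomal order (rows) in each library of PMA_1002, PMA_ethanol and Control (columns). Every Lce3 gene lies above the Control mean in every library of both PMA groups, as do the Sprr1 and Sprr2 genes except Sprr2b in PMA_ethanol library 4 and Sprr2b, Sprr2d and Sprr2i in PMA_1002 library 6, and Crnn varies within every group.

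Levels of different genes are compared per kb of annotated exon. In PMA_1002 ears the highest were Lor (1106 ± 186 CPM per kb), Sprr1a (565 ± 191) and Lce1a1 (448 ± 104). In PMA_ethanol ears Sprr1a came first (1944 ± 636 CPM per kb), then Sprr1b (877 ± 544), Lor (692 ± 145) and Sprr2h (621 ± 348), where the last 3 did not differ beyond their spread. In control ears the order was Lor (922 ± 116 CPM per kb), Lce1a1 (343 ± 93.8) and Lce1m (264 ± 75.5), and Sprr2h stood at 4.51 ± 1.73 (all mean ± SD). Flg, Flg2 and Hrnr stood at 3.35 ± 0.639, 32 ± 8.33 and 70.2 ± 21.3 CPM per kb in control ears, with the limit their repeats set on these counts.

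Other genes of cornification, a list of 48 enzymes, keratins, desmosomal and lipid genes that were all measured, divided as well. In PMA_1002 against PMA_ethanol ears 14 were higher and 11 lower (5 lower without PMA_ethanol library 1 or library 3), beside 17% and 18% of all genes. In PMA_ethanol against control ears 23 were higher and 9 lower, beside 32.5% and 35.9%. In PMA_1002 against control ears 26 were higher and 2 lower, beside 28.4% and 26.7%. Tgm1, the transglutaminase that cross-links the envelope at the membrane, averaged 192 ± 49.4 CPM in PMA_1002 ears, 566 ± 141 CPM in PMA_ethanol ears and 71.5 ± 16.4 CPM in control ears (SD). It was lower in PMA_1002 than in PMA_ethanol ears (log2 fold change -1.55, SE 0.21, edgeR adjusted p = 4.61e-05) and higher in PMA_ethanol than in control ears (log2 fold change 2.98, SE 0.23, edgeR adjusted p = 2.41e-08). Tgm3, a cytosolic transglutaminase, was lower in PMA_1002 than in PMA_ethanol ears (log2 fold change -1.93, SE 0.20, edgeR adjusted p = 3.98e-06). The suprabasal keratin gene Krt10 averaged 13150 ± 767 CPM in PMA_1002 ears, 6210 ± 692 CPM in PMA_ethanol ears and 13320 ± 1902 CPM in control ears. Between PMA_1002 and PMA_ethanol ears Krt10 was higher (log2 fold change 1.08, SE 0.11, edgeR adjusted p = 1.36e-06), and it was lower in PMA_ethanol than in control ears (log2 fold change -1.10, SE 0.11, edgeR adjusted p = 1.72e-07), and periplakin (Ppl) and sciellin (Scel), envelope proteins, were lower in PMA_ethanol than in control ears too (log2 fold changes -0.86 and -1.18).

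Regulators known to act on envelope genes, a list of 30, gave 6 higher and 17 lower in PMA_1002 against PMA_ethanol ears, beside 17% and 18% of all genes, so that the share called higher was near that of all genes. They gave 20 higher and 6 lower in PMA_ethanol against control ears, beside 32.5% and 35.9%, and 19 higher and 3 lower in PMA_1002 against control ears, beside 28.4% and 26.7%. The AP-1 genes Junb and Fosl2 were lower in PMA_1002 than in PMA_ethanol ears, with log2 fold changes of -0.90 and -1.02, and higher in PMA_ethanol than in control ears, with 2.93 and 2.10. Fosl1, another AP-1 gene, averaged 84.8 ± 14.9 CPM in PMA_1002 ears, 203 ± 46.7 CPM in PMA_ethanol ears and 3.09 ± 1.11 CPM in control ears (SD). Elf3, an epithelial ETS factor, was lower in PMA_1002 than in PMA_ethanol ears (log2 fold change -2.58, SE 0.25, edgeR adjusted p = 9.69e-07). Klf4, a barrier factor, and Maf, a factor of terminal differentiation, were higher in that comparison (0.59 and 0.65), and Maf and Gata3 were lower in PMA_ethanol than in control ears (-1.35 and -0.75).

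Of the 24 other genes listed for the same chromosomal complex, 19 were measured. In PMA_1002 against PMA_ethanol ears 6 were lower and 13 were not called, beside 18% of all genes lower. In PMA_ethanol against control ears 10 were higher and 1 lower, beside 32.5% and 35.9%, and in PMA_1002 against control ears 9 were higher and 1 lower, beside 28.4% and 26.7%. S100a9 and S100a8, which neutrophils also express and which are in the neutrophil list, had log2 fold changes of -2.57 and -2.52 in PMA_1002 against PMA_ethanol ears and 7.62 and 7.32 in PMA_ethanol against control ears. Pglyrp3, a peptidoglycan recognition protein, was lower in PMA_1002 than in PMA_ethanol ears (log2 fold change -1.16, SE 0.26, edgeR adjusted p = 0.00247), and S100a10, a partner of annexin A2, was higher in PMA_ethanol than in control ears (log2 fold change 1.31, SE 0.10, edgeR adjusted p = 9.02e-09).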

How the data were processed

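The authors deposited 1 table of raw read counts per gene for each of 15 libraries. Per the labels' protocols, polyA RNA was made into libraries with a kit that keeps the strand. The submitters' processing notes list STAR 2.5, HTSeq, FastQC 0.11.5, MultiQC 0.8 and the build GRCm38. The strand option and annotation release are not stated there. Counts covered 48795 genes, of which 48435 had a symbol in GENCODE M21 (the others held 0.0602% of reads). Reads not counted in a gene (28.5% to 32.85% of all) were left out of library sizes. They include the reads at several positions (15.98% to 20.12% of all).

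From the counts, R 4.3.3 with edgeR 4.0.16 (limma 3.58.1) gave TMM scaling, filterByExpr by group (14991 genes), a robust quasi-likelihood fit over all 3 groups and Benjamini-Hochberg adjusted p, called under 0.05. A prior count of 2 entered the log2 CPM levels of the marker lists and not the tests. The biological coefficient of variation was 0.185. DESeq2 1.42.0, other scalings, no filter, fits of the compared groups alone, a replicate block, a hair follicle covariate and leaving out each library were alternatives. The heat map used a pseudocount of 0.5. Count ratios carry exact 95% intervals, which cover counting error only. No pair of libraries within a group agreed within sampling noise (chi-square per degree of freedom 2.927 to 27.02 over 31 pairs). The fit was tested on simulated data. Python 3.11.15 read promoters and drew figures.

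Members and lists were chosen with earlier results of these data known. Values by library (for PMA_1002 the lowest, median and highest) are given for the 9 named genes and, in the Sprr and Lce families, for the 4 members of highest mean CPM and the 3 of largest absolute log2 fold change per comparison. Of each other list, up to 3 called genes per comparison and direction with the smallest adjusted p could be named. Alternatives for the counts of regulators and neighbouring genes, the Lce3c values and the read ratio were chosen after seeing the data. The counts of regulators and neighbouring genes are given for the TMM-scaled fit over all 3 groups only. How far they depend on the setting is not shown.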

Additional observations from a re-analysis of the deposited data

Results flagged for a closer look

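In 115 groups of 4 to 6 libraries looked at for a library far from the others of its group (1 gene in 1 group each), 2 were marked (1.74%). The groups reuse the same libraries, in which members moved together, so this share is not set against a chance rate. Lce1a2 stood at 60.4 CPM in control library 3, against 85.8 to 96.4 CPM in the other control libraries. Flg stood at 42.2 CPM in control library 2, against 63.5 to 70.8 CPM in the other control libraries.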

How the results depend on the processing

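Upper-quartile scaling moved the median log2 fold change of all genes by 0.08 in PMA_1002 against PMA_ethanol ears, by -0.235 in PMA_ethanol against control ears and by -0.158 in PMA_1002 against control ears. Genes called higher and lower were then 3432 and 2118 (2553 and 2691 with TMM), 3682 and 7262 (4876 and 5382) and 3079 and 5811 (4252 and 3998). Of the members, 7 were then lower in PMA_ethanol than in control ears in place of 4, and 5 of the other cornification genes were lower in PMA_1002 than in control ears in place of 2. With no filter on low counts, 4 members were higher in PMA_1002 than in PMA_ethanol ears in place of 7. Lower cornification genes were then 6 in place of 11, and 1 in place of 2 against control ears. The causes were not tested.

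Leaving out single libraries gave 4 to 14 members higher and 9 to 16 lower in PMA_1002 against PMA_ethanol ears, 17 to 20 higher and 3 to 5 lower in PMA_ethanol against control ears, and 15 to 28 higher and 0 lower in PMA_1002 against control ears. Other cornification genes were lower in 5 to 14 cases in PMA_1002 against PMA_ethanol ears and in 1 to 2 in PMA_1002 against control ears. With the replicate block, 14 members were higher and 6 lower in PMA_1002 against PMA_ethanol ears. The numbers did not pair the samples: 2 of 13 same-number pairs correlated over 0.1 (range -0.533 to 0.579), and 1 of 15 libraries correlated best with its own number.

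Sign turned only in log2 fold changes that were not called. In PMA_ethanol against control ears with upper-quartile scaling these were Lce1e (-0.113), Lce1g (-0.157), Lce1h (-0.0423), Lce1i (-0.149), Lce1j (-0.0669), Lce1k (-0.0978), Kprp (-0.0136) and Crnn (-0.121, and -0.0636 with the replicate block). Flg2 turned in PMA_1002 against control ears (-0.00168). With the hair follicle covariate Crnn turned in PMA_1002 against PMA_ethanol ears (0.344) and against control ears (0.349). Without single libraries, the ranges in PMA_ethanol against control ears were Lce1a1 -0.382 to 0.0614, Lce1d -0.323 to 0.128, Lce1e -0.273 to 0.387, Lce1g -0.256 to 0.365, Lce1h -0.0912 to 0.443, Lce1i -0.172 to 0.352, Lce1j -0.102 to 0.453, Lce1k -0.252 to 0.302, Kprp -0.0527 to 0.441 and Crnn -1.23 to 1.18. In PMA_1002 against control ears Hrnr ranged from -0.244 to 0.0142, and in PMA_1002 against PMA_ethanol ears Ivl ranged from -0.0967 to 0.254 and Crct1 from -0.422 to 0.0097.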
